A study of Mus musculus with 2 samples.

Results

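The Ms4a genes encode small proteins that cross the cell membrane several times, and 8 of them were followed here by gene symbol: Ms4a1, Ms4a4b, Ms4a4c, Ms4a6b, Ms4a6c, Ms4a6d, Ms4a7 and Ms4a8a. They are 8 of the 31053 genes counted, and each had transcripts in both libraries. Cells came from subcutaneous fibrosarcomas, connective tissue tumours grown from syngeneic implanted cells in C57BL/6 mice labelled wild type, and were profiled with the 10x Genomics 3' v3 chemistry, which counts transcript ends by molecular tags (UMIs). The minced tissue was digested with DNase I and collagenase B, and erythrocytes were lysed. The study set mice given autologous erythrocytes in saline against mice given saline alone (PBS), with 1 library for each, and the labels do not give the site of injection. The labels disagree on which library is which: the one titled Control has erythrocytes as its treatment, and the one titled Blood has PBS. Both are therefore called by title, and which of them received erythrocytes cannot be told. There was no test and no replicate check, since each group has 1 library. Intervals are exact at 95% and cover counting error only. The sources used here do not give the number of animals behind a library, a cell sort or how barcodes were called.

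Ms4a1 is CD20, the surface protein of B cells that therapeutic antibodies bind, and it takes part in B cell receptor signalling. Ms4a4b and Ms4a6b are known from T cells, where Ms4a4b modulates the response to activation. The other members are known mainly from monocytes, macrophages and their relatives. Ms4a7 marks tissue macrophages, Ms4a8a has been described on tumour-associated and alternatively activated macrophages, and Ms4a4c is counted among the interferon-induced genes. The family is used in tumour tissue to tell myeloid populations apart.

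The members stood in a single cluster of chromosome 19, which spans 537 kb in mm10 (GENCODE M21), and all 8 were annotated as protein-coding. From left to right, the minus strand held Ms4a8a (chr19:11067471-11081102), Ms4a1 (chr19:11249675-11266241) and Ms4a7 (chr19:11321039-11336146). The plus strand held Ms4a4c (chr19:11404770-11427246), Ms4a4b (chr19:11443553-11467055), Ms4a6c (chr19:11469366-11482192) and Ms4a6b (chr19:11516512-11531256). Ms4a6d lay at the right end on the minus strand (chr19:11586604-11604849). The neighbours Ms4a4c and Ms4a4b shared an identical transcript stretch of 127 bases, and Ms4a6b shared stretches of 96 bases with Ms4a6c and of 81 bases with Ms4a6d. In the last 400 bases of the transcripts, where this chemistry reads, the longest identical stretch between any members was 13 bases.

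The neighbouring paralogs Ms4a4c and Ms4a4b had alike start regions, and so had Ms4a6c and Ms4a6b. The cell classes where each gene was highest differed within both pairs, as the levels further on show. The RefSeq promoter table (GRCm38.p6) held 6 of the 8 members, and Ms4a1 and Ms4a6d were not matched. Over the 300 bases around the annotated starts, 225 of 283 aligned bases (79.5%) were identical between Ms4a4c and Ms4a4b, and 189 of 220 (85.9%) between Ms4a6c and Ms4a6b. Between Ms4a4b and Ms4a6c, which are neighbours too, only 50 bases aligned, and 29 of them were identical. The 250 bases before the start of each gene of the 2 alike pairs are shown because they carry the likeness. The longest run that a pair shares is in capitals, 20 bases in the first pair and 48 in the second. All are on the plus strand, at chr19:11407411-11407660, chr19:11443308-11443557, chr19:11469118-11469367 and chr19:11518309-11518558. For Ms4a4c and Ms4a6b these windows lie inside the GENCODE spans, which begin at 11404770 and 11516512. The outer ends of those 2 spans are neither shown nor searched here.
Ms4a4c: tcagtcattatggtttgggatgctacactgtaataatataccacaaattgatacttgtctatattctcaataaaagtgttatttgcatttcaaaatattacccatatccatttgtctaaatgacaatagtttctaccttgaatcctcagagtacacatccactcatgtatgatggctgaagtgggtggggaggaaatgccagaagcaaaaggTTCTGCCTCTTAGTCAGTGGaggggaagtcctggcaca
Ms4a4b: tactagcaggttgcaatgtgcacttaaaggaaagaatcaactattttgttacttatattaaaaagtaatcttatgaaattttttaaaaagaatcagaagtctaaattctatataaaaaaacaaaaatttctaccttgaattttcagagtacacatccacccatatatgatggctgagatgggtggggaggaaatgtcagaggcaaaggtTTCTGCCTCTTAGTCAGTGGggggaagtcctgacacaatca
Ms4a6c: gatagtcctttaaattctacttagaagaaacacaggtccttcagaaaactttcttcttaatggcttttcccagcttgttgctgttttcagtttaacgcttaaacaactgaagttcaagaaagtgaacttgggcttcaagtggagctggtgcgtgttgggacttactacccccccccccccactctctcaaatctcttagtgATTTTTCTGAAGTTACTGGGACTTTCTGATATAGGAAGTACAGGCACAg
Ms4a6b: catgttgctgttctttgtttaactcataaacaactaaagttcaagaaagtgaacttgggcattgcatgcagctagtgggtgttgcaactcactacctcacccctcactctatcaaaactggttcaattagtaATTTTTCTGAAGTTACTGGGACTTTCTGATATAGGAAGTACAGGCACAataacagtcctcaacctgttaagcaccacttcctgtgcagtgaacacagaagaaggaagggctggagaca
The first run lies 38 to 19 bases before the start of Ms4a4c and 41 to 22 bases before that of Ms4a4b. The second lies 49 to 2 bases before the start of Ms4a6c and 118 to 71 bases before that of Ms4a6b, so the annotated starts of this pair are not at the same place of the shared sequence. The windows were searched for 3 motifs on both strands: the core of the interferon-stimulated response element, GAGGAAGT, a PU.1 type site, and TTCNNNGAA, a STAT type site. None was in a 300-base window of the 6 members, while 3.44%, 3.2% and 8.3% of all 32851 promoters in the table held them. No match says only that these letters are not in these windows.

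From 9475 barcodes with 115272096 UMIs in titled Control and 12057 with 115066023 in titled Blood, 8823 and 11341 passed as cells. The median cell had 9245 and 6577 UMIs. Clusters were made without the Ms4a genes and named from markers that include none of them, so a member's level took no part in defining a class. Macrophage-like cells, defined by complement C1q and Csf1r, were the largest class (5137 and 5264 cells). There were 1188 and 1509 T cell-like, 129 and 1775 neutrophil-like, 655 and 752 monocyte-like, 365 and 385 NK cell-like and 257 and 251 conventional dendritic cell-like (cDC) cells. Only 37 and 62 cells were B cell-like. A further 711 and 1089 cells stayed without a class name, and they held up to 13.5% of a member's UMIs (Ms4a8a in titled Blood). The libraries had 349 barcodes in common. Of these, 339 were kept in both, and 147 (43.4%) had the same class in both, against 22.8% from the class frequencies. Their median was 30557 UMIs in the library titled Control and 1113 in the library titled Blood, and the source of the overlap was not tested. Values without them are given where they change a call.

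Each member had a clear place among the cell classes, and the order of its highest classes was nearly the same in both libraries. Levels are UMIs of a gene summed over a class and scaled to the usual CPM, which divides by all UMIs of that class, given first for titled Control and then for titled Blood. They are compared between classes for 1 gene at a time, not between genes.

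**Figure D1:**
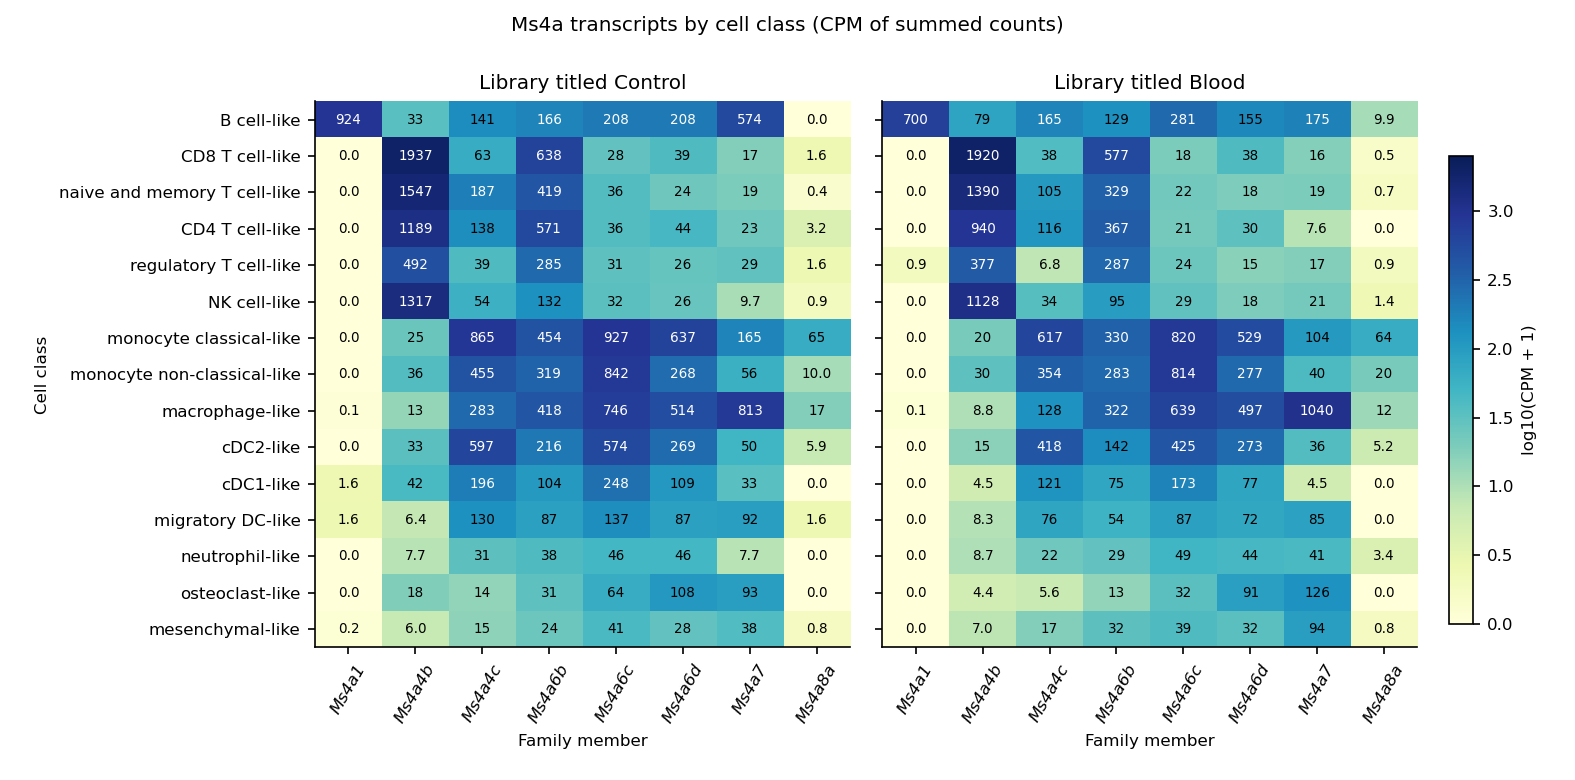
CPM of each of the 8 members (columns) in the summed cells of 15 cell classes (rows), in the library titled Control (left) and the library titled Blood (right). Colour is log10(CPM + 1) and the number in each cell is the CPM. Ms4a1 stands in B cell-like cells, Ms4a4b in T and NK cell-like cells and Ms4a7 in macrophage-like cells, while Ms4a6b is high in both T cell-like and myeloid classes.

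Ms4a1 was a B cell transcript. It stood at 924 CPM (806 to 1054) and 700 CPM (609 to 801) in B cell-like cells, which held 93.3% and 94.6% of all its UMIs. In macrophage-like cells it was at 0.112 and 0.131 CPM, and no UMI was seen in monocyte-like or NK cell-like cells of either library. After every cell was thinned to 2000 UMIs, 76.5% (58.8% to 89.3%) and 75.9% (62.8% to 86.1%) of B cell-like cells had a UMI of Ms4a1, and unthinned 94.6% and 87.1%. The ratio of titled Blood to titled Control was 0.758 (0.625 to 0.919), or -0.40 on the log2 scale. Over 28 class-by-library sums of at least 50 cells, the log2(CPM + 5) of Ms4a1 went most closely with that of Pax5 (Pearson r 0.998), the transcription factor that sets B cell identity, then with Vpreb3 (0.997) and Fcer2a (0.997), among 9172 genes. These r values and those given for the other members are a description: the sums come from 2 libraries and share their depth, and for Ms4a1 they turn on the 1 sum of B cell-like cells that is large enough, that of titled Blood. The markers that named the classes were not left out of the search. Pax5 is one of them, and so are C1qc and Apoe, given below for Ms4a7.

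Ms4a7 also appeared in B cell-like cells, at 574 and 175 CPM, but it lay in few of them. In the library titled Control, 138 UMIs of Ms4a7 were found in 5 of the 37 cells, and 136 of them (98.6%) in 3 cells. In the library titled Blood, 46 of 53 UMIs (86.8%) lay in 3 of 62 cells. The C1q transcripts of macrophages were as uneven, with a median of 1 UMI per B cell-like cell in both libraries and a highest value of 613 and 246. Of the cells with Ms4a7, 5 of 5 and 6 of 8 also had Ms4a1. Of 7 measured members in this class, 1, Ms4a7, was at least 1.5-fold lower in titled Blood, where 11.5% of all genes were, and 1, Ms4a4b (8 and 24 counts), was higher, where 19.9% were. The level of Ms4a7 thus rests on 3 cells in each library, and the part of doublets in it was not tested.

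Ms4a4b followed the T and NK cells. CD8 T cell-like cells had the highest level, at 1937 CPM (1875 to 2001) and 1920 CPM (1878 to 1964). A cluster led by Tcf7 that holds naive and memory T cell-like cells came next (1547 and 1390 CPM), followed by NK cell-like (1317 and 1128 CPM) and CD4 T cell-like cells (1189 and 940 CPM). Regulatory T cell-like cells were the lowest of these classes, at 492 CPM (454 to 533) and 377 CPM (342 to 414). B cell-like cells held 33.3 CPM (14.4 to 65.6) and 79.3 CPM (50.8 to 118). Each step in the order of the T and NK cell-like classes was larger than the counting intervals in both libraries. After thinning, 82.1% and 79.5% of T cell-like and 88.5% and 80.9% of NK cell-like cells had a UMI, against 3.13% and 1.70% of macrophage-like cells at the same depth.

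In the myeloid classes Ms4a4b was low. Macrophage-like cells held 12.97 and 8.82 CPM. If Ms4a4b came with the T cell genes Cd3e, Cd3d and Trbc2 in the ratio seen in T cell-like cells, 5.91 and 5.19 CPM would be found there. Classical monocyte-like cells held 24.8 and 19.7 CPM, which is 5.62 and 4.11 times such a level. That level counts T cell genes only, while NK cell-like cells held 21.5% and 16.4% of the UMIs of Ms4a4b, and the part of transcripts from T or NK cells in the myeloid levels was not tested. The 3 genes most like Ms4a4b over the sums were Ctsw (r 0.981), a protease of cytotoxic cells, Skap1 (0.974), a T cell receptor adaptor, and Nkg7 (0.973), a cytotoxic granule protein.

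Ms4a6b was shared by T cells and myeloid cells, while its paralog Ms4a6c was low in T cells. Macrophage-like cells, the largest class, held most UMIs of both genes. They held 81.1% and 76.6% of those of Ms4a6b and 85.9% and 84.1% of those of Ms4a6c. CD8 T cell-like cells held 638 CPM (603 to 675) and 577 CPM (553 to 601), and CD4 T cell-like cells 571 and 367 CPM. Classical monocyte-like cells were at 454 and 330 CPM, the Tcf7-led T cell-like cells at 419 and 329 CPM and macrophage-like cells at 418 and 322 CPM. The last 2 classes did not differ beyond their counting intervals in either library. NK cell-like cells stood well under all T cell-like classes, at 132 CPM (117 to 147) and 94.5 CPM (81.9 to 109). In CD8 T cell-like cells the level was 69.5 and 116 times what macrophage C1q transcripts would carry with them.

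The genes most like Ms4a6b were Ifi213 (r 0.917), Ifi203 (0.894) and Mndal (0.867), which belong to one family of interferon-inducible nuclear proteins. The paralog Ms4a6c was in contrast low in every T cell-like class, between 28.2 and 36.5 CPM in the library titled Control and between 18.5 and 24.0 CPM in the library titled Blood. Across the 28 sums the pair Ms4a6b and Ms4a6c had r 0.22 and the pair Ms4a4b and Ms4a4c r -0.06. Ms4a6c and Ms4a6d had r 0.95, the highest value among the 28 pairs of members.

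Ms4a6c and Ms4a6d were high in monocyte-like and macrophage-like cells. Ms4a6c was at 927 CPM (897 to 958) and 820 CPM (793 to 847) in classical monocyte-like cells, and non-classical monocyte-like cells, at 842 and 814 CPM, were not apart from them beyond the intervals. Macrophage-like cells followed at 746 and 639 CPM and the dendritic cells of type 2 (cDC2-like) at 574 and 425 CPM. Type 1 dendritic cells (cDC1-like) held 248 and 173 CPM. After thinning, 77.8% and 75.2% of monocyte-like and 72.9% and 68.9% of macrophage-like cells had a UMI of Ms4a6c, against 5.43% and 3.12% of T cell-like cells.

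Ms4a6d was at 637 CPM (612 to 663) and 529 CPM (507 to 551) in classical but at 268 CPM (224 to 317) and 277 CPM (233 to 328) in non-classical monocyte-like cells. The 2 parts of the non-classical class differed, with 83.2 CPM (51.5 to 127) and 114 CPM (77.4 to 162) in sub-cluster 9.3 and 455 CPM (375 to 547) and 474 CPM (389 to 573) in sub-cluster 9.5, where the second value of sub-cluster 9.5 was not apart from classical cells beyond the intervals. Macrophage-like cells as a whole lay between, at 514 and 497 CPM. In the osteoclast-like cells led by Ctsk, Ms4a6d stood at 108 and 91.1 CPM, 4.33 and 3.74 times the level that C1q carry-over would give. The genes most like Ms4a6c were Pld4 (r 0.978), a lysosomal nuclease, Tifab (0.971) and Cybb (0.969), the NADPH oxidase subunit of phagocytes. For Ms4a6d they were Pid1 (0.960), Tgfbi (0.952), an extracellular matrix protein, and Ctsc (0.951), a lysosomal protease.

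Ms4a4c had its highest class levels in monocyte-like and cDC2-like cells. Classical monocyte-like cells held 865 CPM (836 to 895) and 617 CPM (594 to 640), cDC2-like cells 597 and 418 CPM and non-classical monocyte-like cells 455 and 354 CPM. Macrophage-like cells as a whole were lower, at 283 and 128 CPM, but as the largest class they held 74.2% and 61.8% of all its UMIs, and 1 cluster of them, described further on, reached the level of classical monocyte-like cells. Among lymphocytes B cell-like cells were at 141 CPM (98.0 to 198) and 165 CPM (123 to 218), on 34 and 50 counts. Their summed C1q was at 3646 and 2190 CPM, and the part of macrophage transcripts in the Ms4a4c level was not tested. The Tcf7-led T cell-like cells, with 187 and 105 CPM, and CD4 T cell-like cells, with 138 and 116 CPM, were above CD8 T cell-like cells (63.2 and 37.7 CPM), and regulatory T cell-like cells were at 39.3 and 6.85 CPM. The genes nearest to Ms4a4c were less close than those of the other members: Ahr (r 0.797), a ligand-activated transcription factor, Fcgr1 (0.784), the high-affinity IgG receptor, and Trps1 (0.779).

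Ms4a7 was a macrophage transcript. Macrophage-like cells held 813 CPM (807 to 819) and 1040 CPM (1033 to 1047), and 95.6% and 95.7% of all its UMIs were in them. Classical monocyte-like cells held 165 and 104 CPM, and cluster 9, the monocyte-like cluster led by Chil3 and Hp, only 29.0 CPM (22.6 to 36.7) and 47.4 CPM (40.2 to 55.5). After thinning, 62.9% and 70.4% of macrophage-like cells had a UMI, against 3.80% and 3.26% of T cell-like cells. The genes most like it were C1qc (r 0.924), a subunit of complement C1q, Apoe (0.921), a lipid carrier, and Lgmn (0.918), a lysosomal protease.

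In several classes outside macrophages Ms4a7 stood near the level that C1q transcripts would carry with them. In CD8 T cell-like cells it was at 16.7 and 16.5 CPM, while C1q transcripts in those cells, at the macrophage ratio of Ms4a7 to C1q, gave 17.9 and 16.1 CPM. In classical monocyte-like cells the measured 165 and 104 CPM stood against 164 and 85.7 CPM, and in mesenchymal-like cells 38.1 and 93.7 CPM against 39.4 and 81.5 CPM. The cDC2-like cells were under that level, with 50.4 and 36.1 CPM against 90.0 and 119 CPM, with C1q at 1350 and 1284 CPM. Osteoclast-like cells were above it, with 93.1 and 126 CPM against 39.7 and 51.0 CPM. The part of free RNA, doublets or the cells' own transcripts in these levels was not tested.

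**Figure D2:**
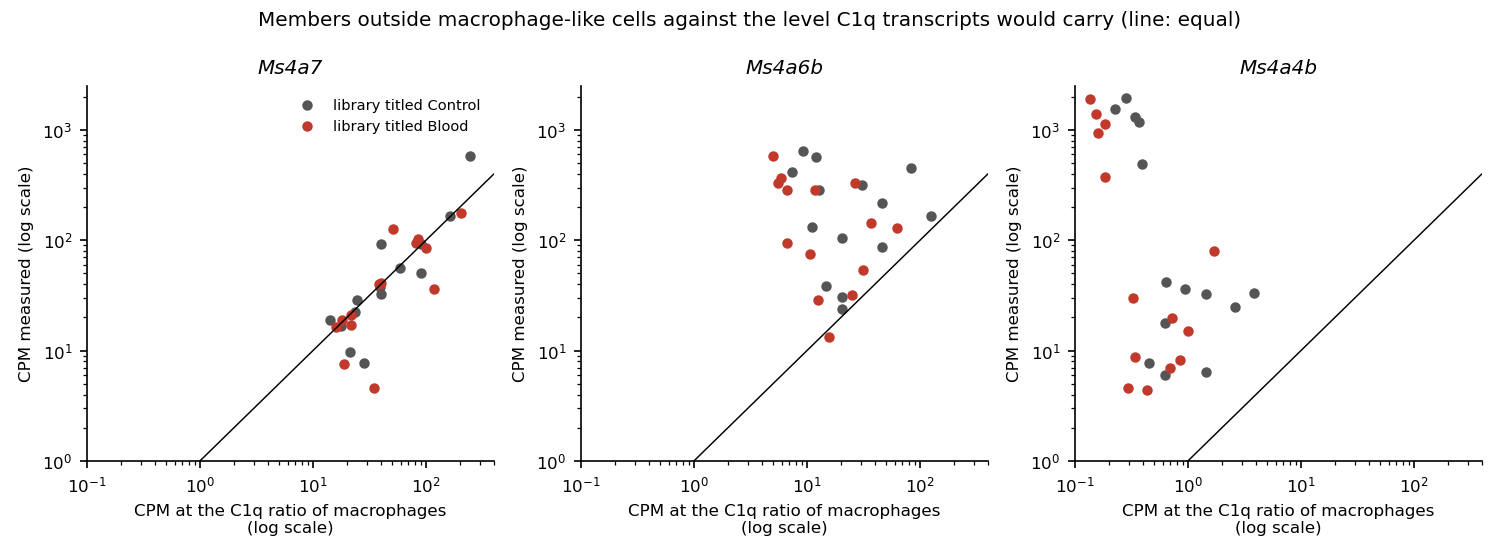
Measured CPM (vertical, log scale) of Ms4a7, Ms4a6b and Ms4a4b in each class outside macrophage-like cells, against the CPM that the class's C1q transcripts would carry at the macrophage ratio (horizontal, log scale). Each point is 1 class in 1 library, grey for titled Control and red for titled Blood, and the line marks equal values. Ms4a7 lies near the line in most classes, while Ms4a4b lies far above it in T and NK cell-like cells and Ms4a6b in T cell-like and monocyte-like cells.

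Ms4a8a stood in a few myeloid groups, with 1811 and 1389 UMIs in all kept cells. Classical monocyte-like cells held 64.5 CPM (56.8 to 73.0) and 64.4 CPM (57.1 to 72.4), and macrophage-like cells 16.8 and 11.5 CPM. Osteoclast-like cells had no UMI of it, and 3 counts there would be 1.77 and 3.33 CPM. After thinning, 10.6% and 9.99% of monocyte-like and 3.95% and 3.25% of macrophage-like cells had a UMI, against 0.362% and 0.142% of T cell-like cells. Cmklr1 (r 0.8699), the chemerin receptor, Lyz2 (0.861), a myeloid lysozyme, and Selenbp1 (0.846) were the genes most like it.

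Among the macrophage-like clusters Ms4a8a and Ms4a4c varied most, with a highest level 16.1 and 10.2 times the lowest for Ms4a8a. Ms4a4b, low throughout, varied 6.40-fold and 7.84-fold and Ms4a7 3.41-fold and 3.29-fold. The 7 whole clusters of the class are led by Ccl8 and Folr2 (cluster 0), H2-Eb1 (2), Mmp12 and Arg1 (3), Mki67 (4), Cxcl9 (6), Ifit3 (7) and Retnla, Ednrb and Lyve1 (13). Cluster 13 also scored highest for the Ccl8 and Folr2 markers, at 2.85 on a scale where cluster 0 had 1.71 and the Retnla markers gave 1.30 in cluster 13. Retnla itself was at 3807 and 438 CPM there. Ms4a4c was highest in cluster 7, at 864 CPM (844 to 883) and 596 CPM (572 to 621). It was lowest in cluster 3 of the library titled Control, at 101.4 CPM, and in cluster 0 of the library titled Blood, at 52.2 CPM. For Ms4a4c the highest level was 8.51 and 11.4 times the lowest.

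Ms4a7 had another order. It was highest in cluster 0, with 1316 CPM (1298 to 1334) and 1622 CPM (1604 to 1640), and lowest in cluster 13, with 386 and 493 CPM. Ms4a8a was highest where Ms4a7 was lowest: cluster 13 held 120 CPM (107 to 133) and 52.0 CPM (43.9 to 61.1), and the other clusters between 7.41 and 32.8 CPM and between 5.09 and 20.2 CPM. The Ms4a6 genes varied less, with a highest level 1.83 and 1.60 times the lowest for Ms4a6c, 1.999 and 1.786 times for Ms4a6d and 2.17 and 2.10 times for Ms4a6b. All of these 3 were highest in cluster 7 in both libraries.

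**Figure D3:**
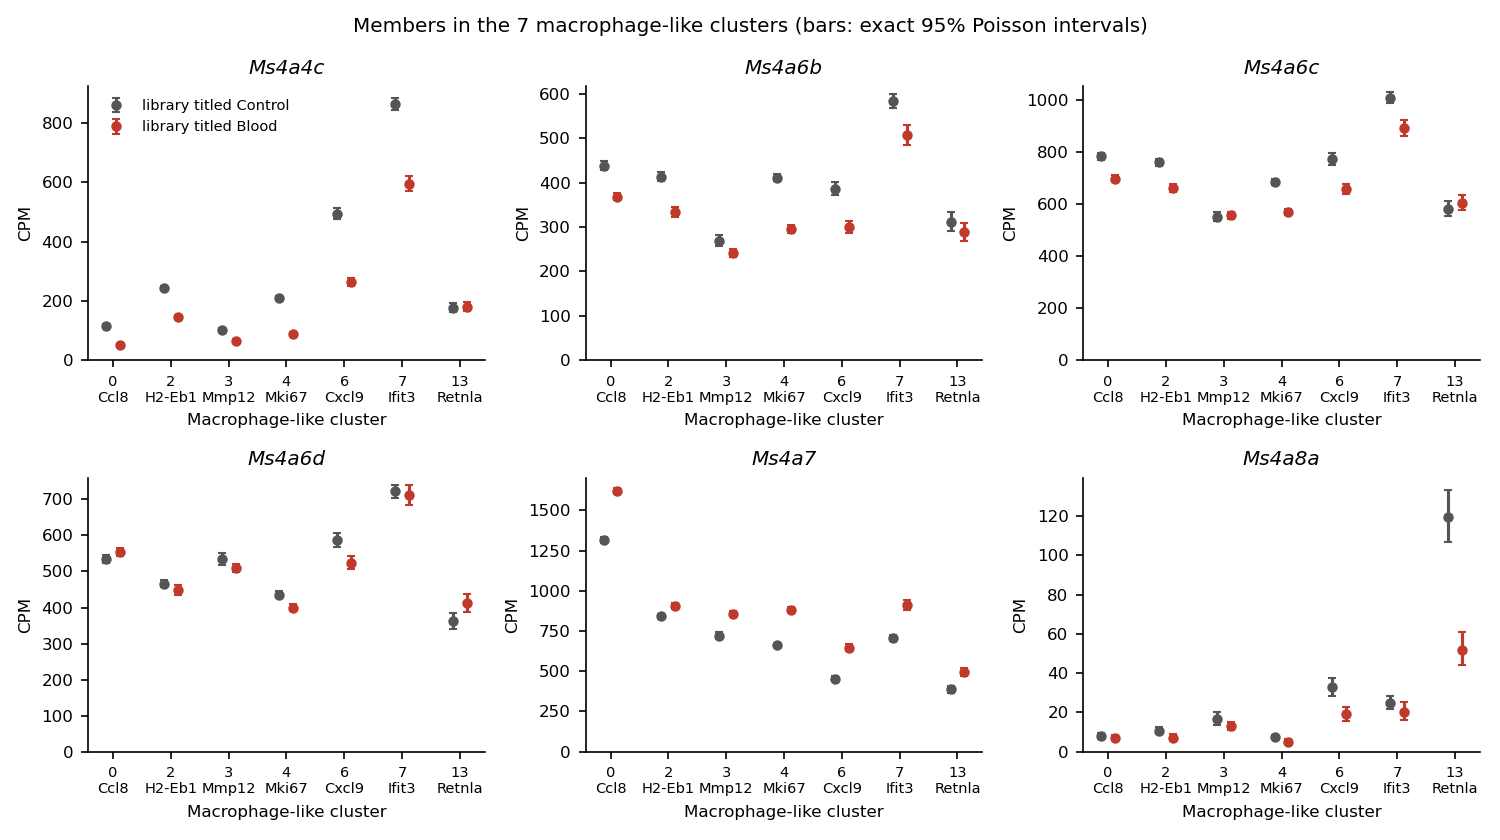
CPM of 6 members in the 7 macrophage-like clusters (horizontal, cluster number and a leading gene) in the libraries titled Control (grey) and titled Blood (red), with exact 95% Poisson intervals. Ms4a4c peaks in the Ifit3-led cluster 7, Ms4a7 in the Ccl8-led cluster 0 and Ms4a8a in the Retnla-led cluster 13. Red points lie above grey ones in every cluster for Ms4a7.

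Parts of clusters, chosen after their values were seen, showed how far the members can separate within clusters named macrophage-like. A part took the name of its cluster where that cluster was named as a whole. In sub-cluster 7.0, led by Ifit1bl1 and Rsad2, Ms4a4c reached 1734 CPM (1669 to 1801) and 1569 CPM (1461 to 1683) and Ms4a7 stood at 248 and 258 CPM. In sub-cluster 7.1, also led by Ifit genes, Ms4a4c was at 377 and 257 CPM and Ms4a7 at 1007 and 1244 CPM. Sub-cluster 6.2, led by Ly6i and Plac8, resembled the former, with Ms4a4c at 1204 and 950 CPM and Ms4a7 at 66.6 and 103 CPM. Plac8 is among the markers of classical monocytes, and classical monocyte-like cells held Ms4a7 at 165 and 104 CPM. The part of monocytes in these sub-clusters was not tested. Within cluster 13, the sub-cluster led by Retnla, Lyz1 and Ear2 held Ms4a7 at 197 and 269 CPM and the one led by Lyve1, Ednrb and Cd163 at 673 and 884 CPM, while Ms4a8a was near 100 CPM in both, at 117 and 82.4 CPM and at 125 and 100.4 CPM.

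The interferon-stimulated list of 35 genes was set beside these levels. Its summed CPM was highest in cluster 7, at 17856 and 16639, and between 1738 and 8286 in the other clusters. Over the 7 clusters, which share library and depth, r with this sum was 0.92 and 0.96 for Ms4a4b, 0.89 and 0.94 for Ms4a4c, and -0.46 and -0.39 for Ms4a7. It was 0.57 and 0.64 for Ms4a6b, 0.62 and 0.73 for Ms4a6c, 0.47 and 0.57 for Ms4a6d, and 0.51 and 0.63 for Ms4a8a. The highest r was thus that of Ms4a4b. The summed C1q level followed Ms4a7 with r 0.79 and 0.91 and Ms4a8a with r -0.72 and -0.88. The summed monocyte genes followed Ms4a8a with r 0.86 and 0.94 and Ms4a7 with r -0.80 and -0.86.

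**Figure D4:**
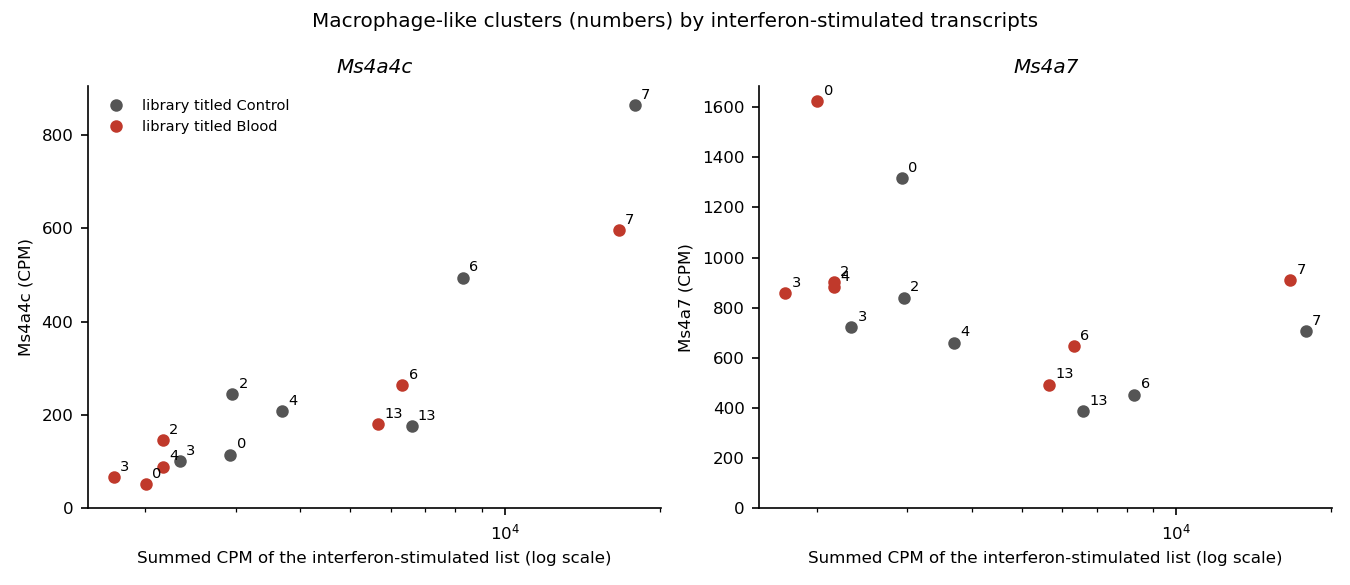
CPM of Ms4a4c (left) and Ms4a7 (right) in the 7 macrophage-like clusters, numbered, against the summed CPM of 35 interferon-stimulated genes (log scale), in the libraries titled Control (grey) and titled Blood (red). Ms4a4c is highest at the right, in cluster 7, with 864 and 596 CPM, and Ms4a7 is highest in cluster 0, with 1316 and 1622 CPM.

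Between the libraries, Ms4a4c stood apart from the other members in macrophage-like cells. Its levels were 283 CPM in titled Control and 128 CPM in titled Blood. The second was 0.454 (0.443 to 0.464) of the first. Its share of thinned cells was 36.7% (35.4% to 38.1%) and 20.4% (19.2% to 21.5%). Of 7 measured members (at least 10 CPM in a library and at least 10 counts), it was the 1 that was at least 1.5-fold lower by the log2 ratio of CPM + 5, which was -1.11. Over all 7791 genes measured in this class 0.86% were lower by that much and 0.449% higher. The members had been chosen with earlier results of these data known. Counts of members beside such shares, here and in the other classes, are therefore a description only. The 7 members had a median log2 ratio of -0.37, and all measured genes 0.01.

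The other members of macrophage-like cells moved less, and Ms4a7 went the other way. Ms4a7 had 813 and 1040 CPM. Its ratio was 1.28 (1.27 to 1.29) and its log2 ratio 0.35, under the 1.5-fold limit. Ms4a6b had a ratio of 0.770 (0.757 to 0.783), Ms4a6c of 0.856 (0.846 to 0.867) and Ms4a6d of 0.967 (0.954 to 0.981). Ms4a8a was at 0.683 (0.627 to 0.745) and Ms4a4b at 0.680 (0.616 to 0.750), which the pseudocount brings to log2 ratios of -0.40 and -0.38. The log2 ratio of Ms4a7 was above 0 in 7 of 7 macrophage-like clusters, between 0.10 and 0.51.

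Cluster by cluster, Ms4a4c was lower in titled Blood in 6 of 7 macrophage-like clusters, by 1.5-fold or more in 4. The lowest log2 ratios were -1.18 in the Mki67-led cluster 4 (209 and 89.3 CPM) and -1.07 in cluster 0 (115.1 and 52.2 CPM). In cluster 7 it was -0.53 (864 and 596 CPM), and in cluster 13 the levels of 177 and 180 CPM did not differ beyond counting error. The mix of clusters moved with the class value: cluster 7 made up 14.7% (13.7% to 15.7%) of the class in titled Control and 6.14% (5.50% to 6.82%) in titled Blood. Without cluster 7 the log2 ratio of Ms4a4c was -0.99, and with every cluster at equal weight it was -0.68, still past 1.5-fold. For Ms4a8a cluster 13 was 5.33% and 8.49% of the class, and the log2 ratio within it was -1.13. The make-up of cluster 13 differed too: of its 274 and 447 cells, 112 and 105 were in the sub-cluster led by Retnla, Lyz1 and Ear2 and 72 and 72 in the one led by Lyve1, Ednrb and Cd163. In titled Blood these parts held Ms4a8a at 82.4 and 100.4 CPM, against 52.0 CPM in the whole cluster.

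Interferon-stimulated genes were lower in the same library. In macrophage-like cells 23 of 34 measured genes of the list were at least 1.5-fold lower in titled Blood and 0 higher, with a median log2 ratio of -0.74. Over all genes measured in the class, 0.86% were lower and 0.449% higher by that much. The list had been chosen with results of these data in view, so its direction is no independent support. Its 3 most abundant genes, Ifi27l2a, Cxcl10 and Bst2, were at 894 and 438, at 651 and 487 and at 632 and 526 CPM. In cluster 4, where Ms4a4c was lowest against titled Control, 27 of 33 list genes were 1.5-fold lower, and in cluster 7 it was 3 of 34. The share over all genes was not taken for single clusters, so these 2 counts have no background beside them. The part of this shared movement in the ratio of Ms4a4c was not tested.

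**Figure D5:**
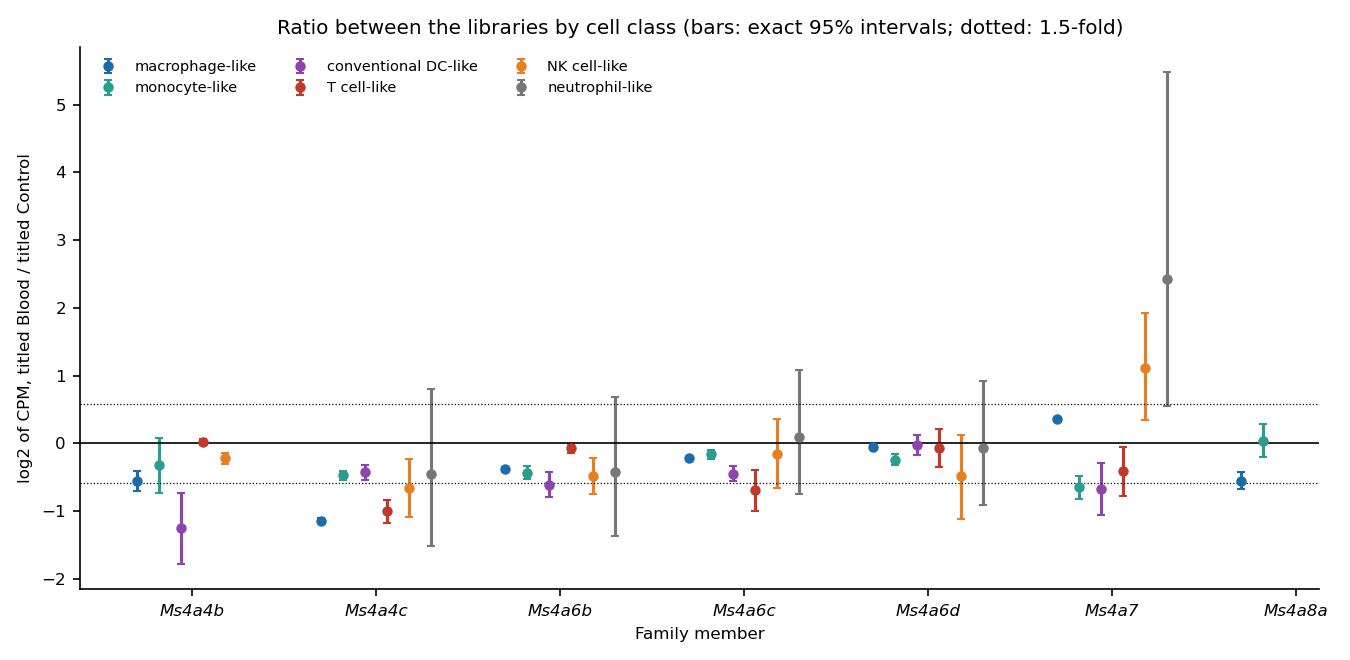
Log2 ratio of CPM, titled Blood over titled Control, for 7 members (horizontal) in 6 cell classes (colours), without a pseudocount, with exact 95% intervals for counting error. Dotted lines mark 1.5-fold. Ms4a4c lies below the lower line in macrophage-like, T cell-like and NK cell-like cells, Ms4a7 lies on both sides of 0, and the neutrophil-like intervals are wide.

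In T cell-like cells as a whole Ms4a4b was near the same level in both libraries and Ms4a4c was lower in titled Blood. Over the whole class Ms4a4b had a ratio of 1.01 (0.985 to 1.04) and Ms4a6b of 0.949 (0.904 to 0.996). Within it the ratio of Ms4a4b was 0.991 (0.953 to 1.03) in CD8 and 0.898 (0.851 to 0.948) in Tcf7-led cells. It was 0.791 (0.729 to 0.858) in CD4 and 0.765 (0.676 to 0.867) in regulatory T cell-like cells. With the clusters at equal weight its log2 ratio was -0.16. For Ms4a6b the ratio was 0.904 (0.843 to 0.970) in CD8 and 0.786 (0.704 to 0.876) in Tcf7-led cells. In NK cell-like cells the ratio of Ms4a4b was 0.857 (0.812 to 0.905). Over all T cell-like cells Ms4a4c had 117 CPM (109 to 126) and 58.5 CPM (53.3 to 64.1). The ratio was 0.499 (0.444 to 0.560) and the log2 ratio -0.95. It was the 1 of 6 measured members past 1.5-fold lower, where 1.19% of all genes in the class were lower by that much, and 0 were higher, where 1.04% were. Ms4a6c had a log2 ratio of -0.58, at the edge of the limit, and of -0.60, past it, without the shared barcodes.

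The T cell-like classes had different ratios, and the difference between them was not tested. The log2 ratio of Ms4a4c was -1.90 in regulatory (39.3 and 6.85 CPM, from 49 and 8 counts), -0.81 in Tcf7-led and -0.68 in CD8 T cell-like cells, and -0.24 in CD4 T cell-like cells. In those, 4.71%, 2.64%, 1.84% and 6.47% of all measured genes were 1.5-fold lower. The members lower by that much were 3 of 6 in regulatory (Ms4a4c, Ms4a6d, Ms4a7), 2 of 6 in Tcf7-led (Ms4a4c, Ms4a6c), 1 of 6 in CD8 (Ms4a4c) and 3 of 6 in CD4 T cell-like cells (Ms4a6b, Ms4a6c, Ms4a7). None was higher, where 4.82%, 2.87%, 1.83% and 4.85% of genes were. In regulatory T cell-like cells the ratio intervals of Ms4a6d (0.308 to 1.06, 33 and 18 counts) and Ms4a7 (0.325 to 1.05, 36 and 20 counts) include 1. In CD4 T cell-like cells Ms4a6c rests on 34 and 28 counts and Ms4a7 on 21 and 10. C1q was at 370 and 235 CPM in the regulatory and at 351 and 205 CPM in the CD4 class, and the part of carry-over was not tested. Ms4a6b was 1.5-fold lower in CD4 T cell-like cells, at 571 and 367 CPM with a ratio of 0.643 (0.567 to 0.729), and level in regulatory T cell-like cells, at 285 and 287 CPM. The Tcf7-led cells were 472 in the library titled Control and 286 in titled Blood, and CD8 T cell-like cells 291 and 694, so the mix of T cell-like cells differed too. In NK cell-like cells 1 of 6 measured members, Ms4a4c (54.1 and 34.3 CPM), was 1.5-fold lower against 2.02% of genes, with a log2 ratio of -0.59 that was -0.48 without the shared barcodes and then under the limit, and 1, Ms4a7, was higher against 2.57%. The latter had 22 and 45 counts and stood at or under the level at the macrophage ratio to C1q in both libraries.

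In monocyte-like cells the Ms4a4c and Ms4a6 genes were lower in titled Blood by less than 1.5-fold. Ms4a4c had a ratio of 0.721 (0.686 to 0.757), Ms4a6b of 0.741 (0.693 to 0.793), Ms4a6d of 0.846 (0.7998 to 0.894) and Ms4a6c of 0.893 (0.854 to 0.933). Ms4a8a was level, at 58.3 and 59.9 CPM. Ms4a7 was the 1 of 7 measured members past 1.5-fold lower, at 152 and 97.2 CPM with a log2 ratio of -0.62, where 1.67% of genes in the class were lower by that much. None was higher, where 1.31% of genes were. Among classical monocyte-like cells Ms4a7 was again the 1 of 7 past the limit, lower, beside 1.91% of genes, with 0 higher beside 1.66%. Among non-classical ones 0 of 7 were lower beside 9.29%, and 1, Ms4a8a on 5 and 10 counts, was higher beside 9.4%.

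The Ms4a7 value of monocytes came with a change in which cells were in the class. Monocyte-like cells from cluster 5, led there by Ly6i and Ly6c2, were 42.0% of the class in the library titled Control and 21.1% in the library titled Blood, and held Ms4a7 at 313 and 211 CPM and C1q at 4698 and 2341 CPM. Cluster 9 made up 54.4% and 63.7% and had Ms4a7 at 29.0 and 47.4 CPM, higher in titled Blood by a log2 ratio of 0.62. Its C1q was at 496 and 328 CPM. The direction of Ms4a7 in the class was thus not that of its main cluster. Cells from cluster 17 made up the remaining 3.66% and 15.2%, with Ms4a7 at 179 and 182 CPM and C1q at 1744 and 1453 CPM. For Ms4a4c the cells from cluster 5 (999 and 622 CPM) and those of cluster 9 (737 and 653 CPM) were lower in titled Blood, and those from cluster 17 were not (184 and 200 CPM).

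In cDC-like cells 3 of 6 measured members were at least 1.5-fold lower in titled Blood, where 1.25% of all measured genes were, and 0 were higher, where 1.47% were. The lower ones were Ms4a4b (33.3 and 14.05 CPM), Ms4a6b (188 and 124 CPM, ratio 0.656, 0.576 to 0.746) and Ms4a7 (47.9 and 30.01 CPM). Ms4a4c (489 and 365 CPM) and Ms4a6c (497 and 364 CPM) had ratios of 0.745 and 0.732, and Ms4a6d was level at 230 and 227 CPM. The log2 ratios of Ms4a6b and Ms4a7, -0.59 and -0.59, stood close to the limit of 1.5-fold, and Ms4a6b was past it in 6 of 12 alternative settings, with -0.28 where the libraries were clustered separately. In cDC2-like cells 2 of 6, Ms4a4b and Ms4a6b, were lower beside 2.14% of genes and 0 higher beside 2.05%. In cDC1-like cells 3 of 6, Ms4a4b, Ms4a4c and Ms4a7, were lower beside 11.8% and 0 higher beside 9.26%. Of the 108 counts of Ms4a4b in the library titled Control, 27 were in the 54 cDC1-like cells, which also held T cell receptor transcripts at 53.0 CPM, against 4.55 CPM in titled Blood.

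Neutrophil-like cells held little of the family, and 0 of 5 measured members were 1.5-fold lower, where 14.3% of genes were. The 4 measured members other than Ms4a7 lay between 30.8 and 46.2 CPM in the library titled Control, on 8 to 12 counts each, and between 22.4 and 49.5 CPM in the library titled Blood. Ms4a7 was 1.5-fold higher, with 2 counts (7.70 CPM) and 133 counts (41.4 CPM), a ratio of 5.38 (1.46 to 44.9), where 20.7% of all genes in this thin class were higher by that much. At the C1q ratio 28.5 and 40.3 CPM would be found. The remaining classes were small, and their ratios rest on few cells: mesenchymal-like cells had Ms4a7 at 38.1 and 93.7 CPM, 1 of 5 measured members past 1.5-fold higher against 1.09% of genes, with 0 lower against 1.45%, and C1q there was at 592 and 881 CPM. In migratory dendritic cell-like cells 3 of 5 measured members, Ms4a4c, Ms4a6b and Ms4a6c, were 1.5-fold lower against 8.06% of genes, on 26 to 86 counts each, and 0 were higher against 16.0%. In osteoclast-like cells 4 of 6 were 1.5-fold lower against 5.08%, Ms4a4b, Ms4a4c, Ms4a6b and Ms4a6c, on 4 to 108 counts each, and 0 were higher against 7.42%.

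Of the 17 other family genes listed, 13 were among the genes counted, and 9 had a UMI in a kept cell. Ms4a4a, a macrophage surface protein, and Ms4a14 were higher in titled Blood in macrophage-like cells, at 21.9 and 27.5 CPM and at 18.9 and 27.0 CPM, with ratios of 1.25 (1.17 to 1.33) and 1.43 (1.33 to 1.53). Tmem176a and Tmem176b, related membrane proteins encoded on chromosome 6 and known from dendritic cells, had ratios of 0.321 (0.303 to 0.341) and 0.301 (0.288 to 0.315) there, from 59.8 and 19.2 CPM and from 109 and 32.7 CPM. They were level in cDC-like cells as a whole, at 148 and 144 CPM and at 183 and 177 CPM. Among cDC1-like cells, where 11.8% of genes were 1.5-fold lower, Tmem176a was lower, at 77.9 and 25.0 CPM on 50 and 11 counts. Tmem176b was level there, at 93.4 and 88.7 CPM. Ms4a4d was at 18.5 and 14.6 CPM in mesenchymal-like cells and at 0.112 and 0.0394 CPM in macrophage-like cells. Ms4a2, the beta chain of the IgE receptor of mast cells, had 10 and 2 UMIs, Ms4a3 6 and 8, Ms4a15 5 and 2 and Ms4a5 1 and 1. Ms4a10, Ms4a12, Ms4a13 and Ms4a18 had none, where 3 counts would be 0.0269 and 0.0272 CPM over all kept cells.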

How the data were processed

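The deposited matrices hold raw UMI counts per gene and cell. The submitters' processing notes name Cell Ranger 3.1.0 and the mouse build mm10. Cells with at least 300 genes, 500 UMIs and at most 20% mitochondrial counts were kept, and 162 of 8985 and 276 of 11617 were removed as doublets (1.80% and 2.38%, against 7.19% and 9.29% expected from loading). Clusters (scanpy 1.11.5, 2000 variable genes without the Ms4a and Tmem176 families, 30 components, Leiden resolution 1, leidenalg 0.10.2) were named from fixed marker lists, and the score limits of naming were set after the data were seen. Members and lists were chosen with earlier results of these data known. Levels are CPM of summed counts with exact Poisson intervals, shares have Clopper-Pearson intervals and ratios exact conditional binomial ones (scipy 1.17.1). A ratio was called at 1.5-fold on log2(CPM + 5). The scripts were tested on simulated data. Named genes are the members, the other family genes with a UMI, and for each member the 3 genes with the highest Pearson r over class sums. Alternatives were other filters, clusterings, pseudocounts and scalings, among them edgeR 4.0.16 TMM factors. Positions came from GENCODE M21, which held 31011 of the 31053 gene IDs. Which annotation was used for counting is not given in the sources used here.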

Additional observations from a re-analysis of the deposited data

Results flagged for a closer look

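Ms4a7 had log2 ratios of titled Blood to titled Control on both sides of 0, and was singled out because cell classes went opposite ways. It was 0.35 in macrophage-like, 0.83 in NK cell-like and 1.87 in neutrophil-like cells, but -0.62 in monocyte-like, -0.59 in conventional dendritic cell-like and -0.32 in T cell-like cells. With 1 library per group the difference was not tested. The NK cell-like value rests on 22 and 45 counts and the neutrophil-like value on 2 and 133. In CD8 T cell-like, NK cell-like, neutrophil-like, cDC2-like and classical monocyte-like cells, Ms4a7 stood near or under the level at the macrophage ratio to C1q, as given above. The part of free RNA, doublets or the cells' own transcripts was not tested. The monocyte-like ratio became 0.20 with the Ms4a genes kept for clustering. Cluster 9 alone was higher in titled Blood (29.0 and 47.4 CPM), while its C1q was lower there (496 and 328 CPM).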

How the results depend on the processing

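Of 37 log2 ratios of members, 25 kept their sign under every alternative run and 12 changed it under some. Ms4a4c in macrophage-like cells ranged from -1.18 to -0.68 and stayed past 1.5-fold in 14 of 14 alternatives, and Ms4a7 there from 0.31 to 0.45, never past it. Ms4a7 in monocyte-like cells reversed to 0.20 when the Ms4a genes were kept for clustering, and was past 1.5-fold in 5 of 13. The number of monocyte-like members called lower, 1, became 0 with Ms4a genes kept for clustering, a stricter cell filter, each library clustered on its own, averaged per-cell CPM or clusters at equal weight, and 2 with no cell filter. In neutrophil-like cells members called lower went from 0 to 2 with the stricter filter, 4 with own clustering and 1 with averaged per-cell CPM, and those higher from 1 to 6 with doublets kept and 2 with no gene filter. In T cell-like cells members called lower went from 1 to 3 with doublets kept or no cell filter, and to 2 with a pseudocount of 1, TMM, median-of-ratios factors or without the shared barcodes, an alternative added after seeing the data. In NK cell-like cells the 1 called lower became 0 with Ms4a genes kept, the stricter or no cell filter, Leiden resolution 2, own clustering, averaged per-cell CPM or without the shared barcodes. In cDC-like cells Ms4a6b ranged from -0.63 to -0.28 and was past 1.5-fold in 6 of 12, Ms4a7 from -1.38 to -0.31 and in 11 of 12, and Ms4a4b in 12 of 12. The cause was not tested. Clusters at equal weight give no value for classes of 1 cluster. Thinning to 5000 UMIs moved 82 of 104 shares of cells and leaving out thinning 73 of 112, so shares hold for 2000 UMIs only. No paired analysis was possible because each group has 1 library.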
